A study of Mus musculus with 12 samples.

Results

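The genes described are 40 members of the p53 pathway, chosen by symbol: the factor itself (Trp53), its inhibitors and its established target genes. Of these, 39 were listed among the 14096 genes of the deposited tables, and Cdkn2a was not listed and is not analysed here. The list had been drawn up with the comparison of vehicle-treated diabetic and nondiabetic mice already known. The values of that comparison are therefore given as a description without a test, and the effect of diabetes was tested in the ATG-treated mice, which that comparison did not use.

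The protein p53 is a transcription factor that is kept at a low level by the ubiquitin ligase Mdm2 and accumulates after DNA damage, oxidative stress or ribosomal stress. It binds pairs of a short palindromic half-site and raises genes that halt the cell cycle, repair DNA or start apoptosis, and Mdm2 is itself one of its targets. In the kidney, p53 and the cell cycle inhibitor p21, the product of Cdkn1a, are best known from tubular cells after acute injury and from senescent cells.

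Glomerular mRNA was sequenced from 12 male eNOS-/- mice on a C57BL/6J background, in 4 groups of 3 mice. All mice, controls included, lacked endothelial nitric oxide synthase. At 8 weeks of age, mice of the diabetic groups had been given 50 mg/kg streptozotocin (STZ), which destroys beta cells, once a day for 5 days, whereas controls had been given its citrate buffer. Oral treatment began 10 weeks later and lasted 8 weeks, with either 40 mg/kg/day arctigenin (ATG), a plant lignan, in 5% DMSO or the 5% DMSO vehicle, so that glomeruli were taken 18 weeks from induction. The groups were vehicle-treated nondiabetic (Con_DMSO), ATG-treated nondiabetic (Con_ATG), vehicle-treated diabetic (DM_DMSO) and ATG-treated diabetic mice (DM_ATG). Mice are numbered within a group in the order of the labels.

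Each library held between 23.6 M and 29.8 M (mega) reads on the listed genes, and replicate mice correlated with r from 0.972 to 0.994 across genes. A deposited value is the log2 of a gene's reads after scaling by 1 factor per library, so a difference of 1 is a doubling, and values of different genes are not comparable without division by length. The submitters' protocol also describes digestion to single cells and a sort by a fluorescent protein, which the methods of the study do not mention. Markers of several cell types were present in every library, so the samples are treated as whole glomeruli. The ATG-treated nondiabetic libraries stood apart: their mean tubule marker value was the highest (13.69 to 14.30), and in mice 1 and 2 the podocyte marker mean was 13.23 and 13.69, against 14.24 to 14.94 in the other 10 mice. No batch is named in the labels, but the number with which a mouse's label begins never covered mice of more than 1 group, so whatever it marks and the group cannot be told apart.

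Among the listed members, reads ranged from 32 in the lowest mouse of Psrc1 to 12309 in the highest mouse of Btg2. Every listed gene reached a linear value of at least 100 in some library, which 37 of the 39 members did in a library of every group. Eda2r did so in all groups but ATG-treated nondiabetic mice. Psrc1 did so only in diabetic libraries, so it is listed because of the groups in which it is high, its values are a description without a test, and its place in a count below supports nothing. On the linear scale per kilobase of the gene length given in the tables, the mean level in vehicle-treated nondiabetic mice ranged from 31.6 for Psrc1 to 3900 for Gadd45a. On that scale Cdkn1a was at 1270 and Eda2r at 51.3 in these mice, and they were at 4240 and 228 in vehicle-treated diabetic mice.

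To show what promoter sequence the members have in common, their promoters were searched for exact matches to the 10-base p53 half-site consensus, which reads the same on both strands. RefSeq windows (GRCm38.p6, 250 bases before to 50 after a start site, several for some genes) were found for 32 of the 40 members. At least 1 half-site lay in a window of 13 of these 32 genes (40.6%), against 921 of 11151 listed genes with a window (8.26%). Among the members with a window that rose in diabetic ATG-treated mice (limma, adjusted p under 0.05), 8 of 19 had a half-site (42.1%), and among the other listed members with a window 5 of 12 did (41.7%). A separate list of other p53 targets had a half-site in 3 of 58 genes with a window (5.17%). A match is a description of letters, not a bound site, and binding was not measured.

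The 250 bases upstream of the Cdkn1a start are shown because this gene, with Rps27l, was one of 2 members with 2 half-sites in a window. They lie at chr17:29090729-29090978 on the plus strand, with the half-sites in capitals, the first of which begins 73 bases and the second 51 bases before the start.
Cdkn1a: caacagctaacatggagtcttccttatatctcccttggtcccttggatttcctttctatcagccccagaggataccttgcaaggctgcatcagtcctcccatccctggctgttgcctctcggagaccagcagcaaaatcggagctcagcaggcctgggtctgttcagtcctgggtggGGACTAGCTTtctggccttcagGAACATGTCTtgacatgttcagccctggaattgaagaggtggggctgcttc

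Stretches around single half-sites, again in capitals with up to 20 bases on either side, are shown for Trp53 and for the genes with 1 half-site among the 12 members with the lowest p for diabetes under ATG. The stretch of Trp53 lies at chr11:69580264-69580313 on the plus strand and that of Mdm2 at chr10:117710915-117710964 on the minus strand. Those of Bax (chr7:45467070-45467119, minus strand), Aen (chr7:78895917-78895966, plus strand) and Polk (chr13:96519389-96519437, minus strand) follow, and the Aen half-site begins 10 bases inside the transcript.
Trp53: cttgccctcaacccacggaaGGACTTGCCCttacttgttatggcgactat
Mdm2: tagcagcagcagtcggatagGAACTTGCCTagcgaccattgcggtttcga
Bax: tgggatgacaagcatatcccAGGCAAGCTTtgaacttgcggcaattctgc
Aen: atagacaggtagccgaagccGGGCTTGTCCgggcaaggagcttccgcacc
Polk: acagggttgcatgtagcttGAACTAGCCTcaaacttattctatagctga
The half-site began 75 bases before the start in Trp53, 186 in Mdm2, 201 in Bax and 231 in Polk. Gadd45a (40 bases), Ccng1 (185), Ppm1d (132), Sesn1 (173), Ei24 (10) and Rps27l (210 and 107) also had one upstream of a start, and that of Abhd4 began 1 base inside a transcript. Eda2r, Phlda3, Psrc1, Dram1, Fas and Gdf15 had no exact match in their windows, which says only that these letters are not there.

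Many p53 pathway genes were higher in diabetic than in nondiabetic glomeruli of ATG-treated mice. In these 6 mice, 22 of 39 members (56.4%) were higher in diabetic than in nondiabetic glomeruli at an adjusted p under 0.05 (limma, Benjamini-Hochberg over all listed genes), against 20.5% of all listed genes. Without Psrc1 they were 21 of 38 (55.3%). Another 2 (5.13%), Perp and Abhd4, were lower, against 18.7% of all genes. The median log2 fold change over the 39 members was 0.42, and over all listed genes it was 0.053. All 3 diabetic mice exceeded all 3 nondiabetic mice in 23 members (30.5% of all genes) and lay below them in 2 (25.6%). A log2 fold change of at least 1 was reached by 8 members (20.5%), or 7 without Psrc1, against 4.14% of all genes. The genes that rose most were Eda2r, Cdkn1a and Phlda3, each by more than 4-fold, and Psrc1 had a value of the same size.

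In vehicle-treated mice, described without a test because these values were known when the list was drawn up, 30 of 39 members lay above 0 (51.2% of all genes did) and the median was 0.40. All 3 diabetic mice exceeded all 3 nondiabetic mice in 26 members (23.0% of all genes), and all 3 lay below in 3 members, Btg2, Mdm4 and Xpc (18.7%). The 7 members at or above a log2 fold change of 1 in vehicle-treated mice (1.11% of all genes) were Cdkn1a, Psrc1, Eda2r, Bax, Phlda3, Dram1 and Gdf15, which also passed 1 in ATG-treated mice. Over both treatments, all 6 diabetic mice exceeded all 6 nondiabetic mice in 16 members (41.0%), against 13.3% of all genes.

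**Figure D1:**
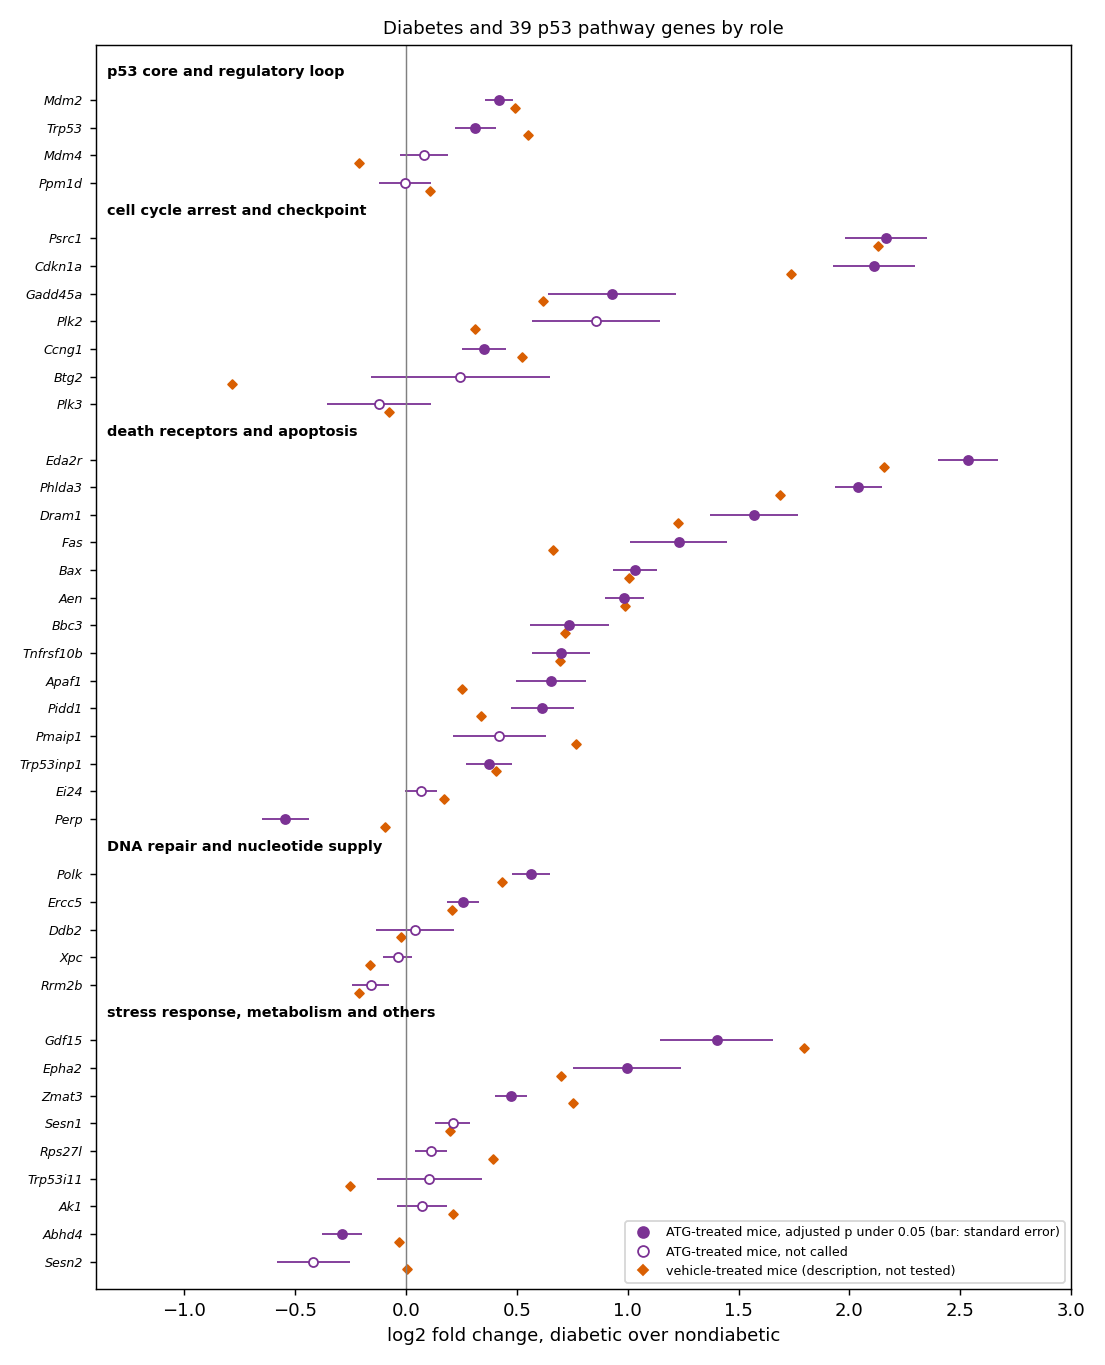
Log2 fold change of diabetic over nondiabetic mice (x axis) for the 39 listed members, grouped by role (y axis). Circles are ATG-treated mice with the standard error as a bar, filled where the adjusted p was under 0.05, and diamonds are vehicle-treated mice. Eda2r lies farthest to the right at 2.53 and Perp farthest to the left among the filled circles at -0.54.

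The diabetic and nondiabetic libraries also differed in the levels of cell type markers, and in bulk tissue fewer cells of a type and less RNA per cell cannot be told apart. Of 20 kidney tubule markers, 19 were called lower in diabetic than nondiabetic ATG-treated mice, against 18.7% of all genes. The mean of the list lay between 11.84 and 12.48 in diabetic and between 13.69 and 14.30 in nondiabetic ATG-treated mice. In vehicle-treated mice it lay between 11.09 and 12.43 in diabetic and between 12.96 and 13.54 in nondiabetic mice. All 10 endothelial markers were called higher in diabetic ATG-treated mice (limma, adjusted p under 0.05, list mean 14.13 to 14.27, against 12.70 to 13.49). So were 4 of 7 mesangial, 5 of 11 listed leukocyte and 1 of 10 podocyte markers, the last a smaller share than the 20.5% of all genes. By value, all 10 endothelial (median 1.15), all 7 mesangial (0.74), all 10 podocyte (0.66) and 10 of 11 leukocyte markers (0.54) lay above 0 under ATG. In vehicle-treated mice all 7 mesangial markers had values below 0 in diabetes instead (median -0.23, list mean 11.50 to 11.76 in diabetic and 11.77 to 12.15 in nondiabetic mice), while 8 of 10 endothelial (median 0.51), 8 of 10 podocyte (0.15) and all 11 leukocyte markers (0.62) lay above 0. All 20 tubule markers were among the listed genes, so each reached a linear value of at least 100 in some library. Because of these marker differences, the p53 genes were also fitted with the tubule markers, or the podocyte, endothelial and mesangial markers, taken into account.

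**Figure D2:**
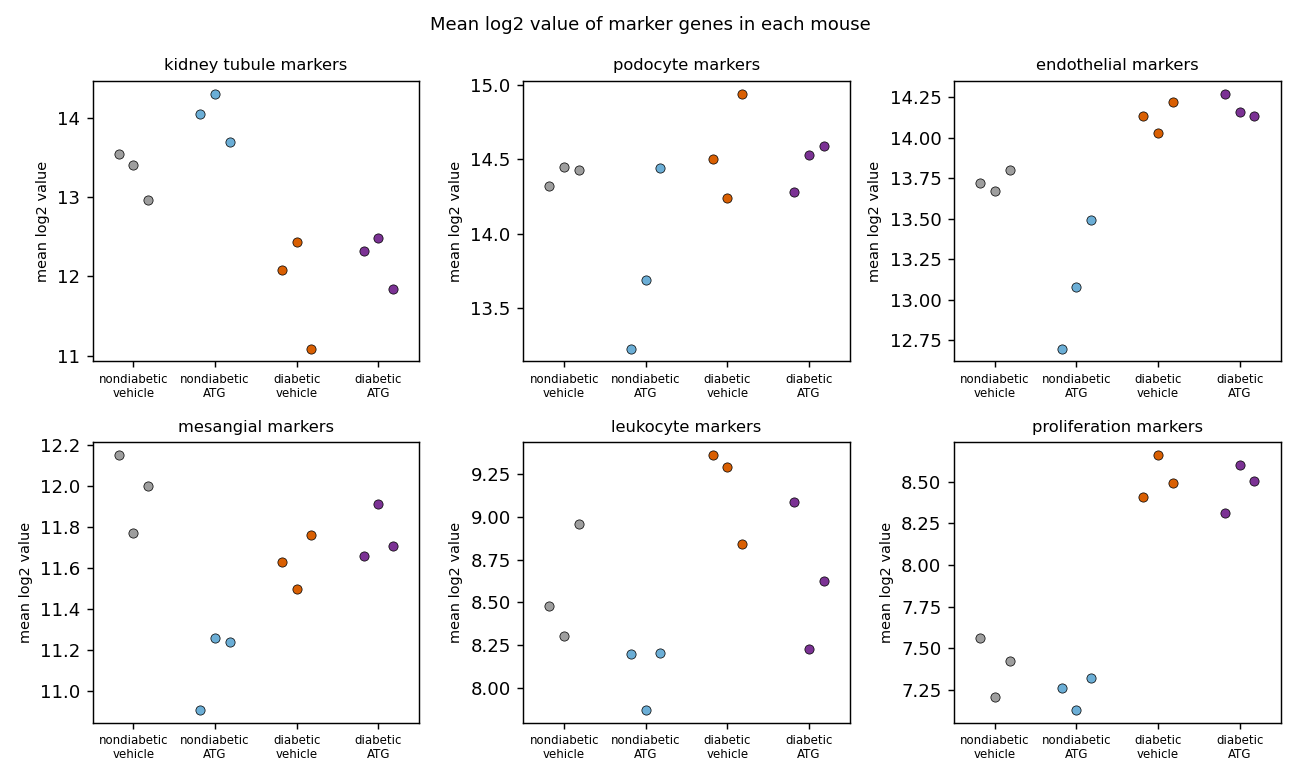
Mean log2 value (y axis) of the marker genes of each list in each mouse (points), by group (x axis). Tubule marker means of the 6 diabetic mice lie between 11.09 and 12.48, under those of the 6 nondiabetic mice (12.96 to 14.30), and proliferation marker means lie between 8.31 and 8.66 in diabetic and between 7.13 and 7.56 in nondiabetic mice.

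When the tubule list mean was added as a covariate to a fit of all 12 mice, 7 members were higher in diabetes under ATG and none was lower (limma, adjusted p under 0.05), against 0.575% and 0.0709% of all genes. They were Aen, Bax, Eda2r, Gdf15, Phlda3, Pmaip1 and Psrc1. Of the 22 members called higher in the 6 mice, 16 lost the call there, while 13 of the 22 had a value as large or larger, among them Cdkn1a (2.53 ± 0.52, limma adjusted p = 0.0599), Mdm2 (0.65), Zmat3 (0.96) and Bbc3 (1.12), and 9 a smaller one. The median of the members was 0.67. Trp53inp1 turned to -0.08, and Perp, called lower in the 6 mice, turned to 0.67. This fit also uses the vehicle-treated mice of the comparison known when the list was drawn up, so its calls are not independent of the choice of members. The tubule means spread most in vehicle-treated diabetic mice (SD 0.693), and the part of single mice in these values was not tested.

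When each library was instead centred on its podocyte, endothelial and mesangial markers, the log2 fold change of every gene fell by the same 0.82, so that the order of the genes was kept and a sign turned wherever the rise had been under 0.82. The median was then -0.40 over the members and -0.77 over all genes. On that scale 5 members were called higher (0.724% of all genes), namely Cdkn1a, Dram1, Eda2r, Phlda3 and Psrc1, and 13 lower (65.9% of all genes). The members called higher in the 6 mice that lay below 0 after this shift were 11, namely Trp53, Mdm2, Ccng1, Tnfrsf10b, Bbc3, Pidd1, Apaf1, Trp53inp1, Polk, Ercc5 and Zmat3. Eda2r and Phlda3 were called higher both with the covariate in all 12 mice and after centring, as was Psrc1, which is listed only through diabetic libraries.

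The tubule means of diabetic and nondiabetic mice do not overlap in the 6 ATG-treated mice. They do not overlap in all 12 mice either (11.09 to 12.48 against 12.96 to 14.30). The covariate and diabetes can therefore not be fully told apart in either fit. In the 6-mouse fit with the tubule covariate no member, and no gene at all, was called at an adjusted p under 0.05. The median of the members in that fit was 0.46, and the values were 2.54 ± 0.53 for Eda2r, 1.91 ± 0.71 for Cdkn1a, 1.72 ± 0.38 for Phlda3 and 1.97 ± 0.72 for Psrc1 (SE). Of the 22 members called higher without the covariate, 4 turned below 0 there, namely Trp53, Gadd45a, Apaf1 and Trp53inp1.

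**Figure D3:**
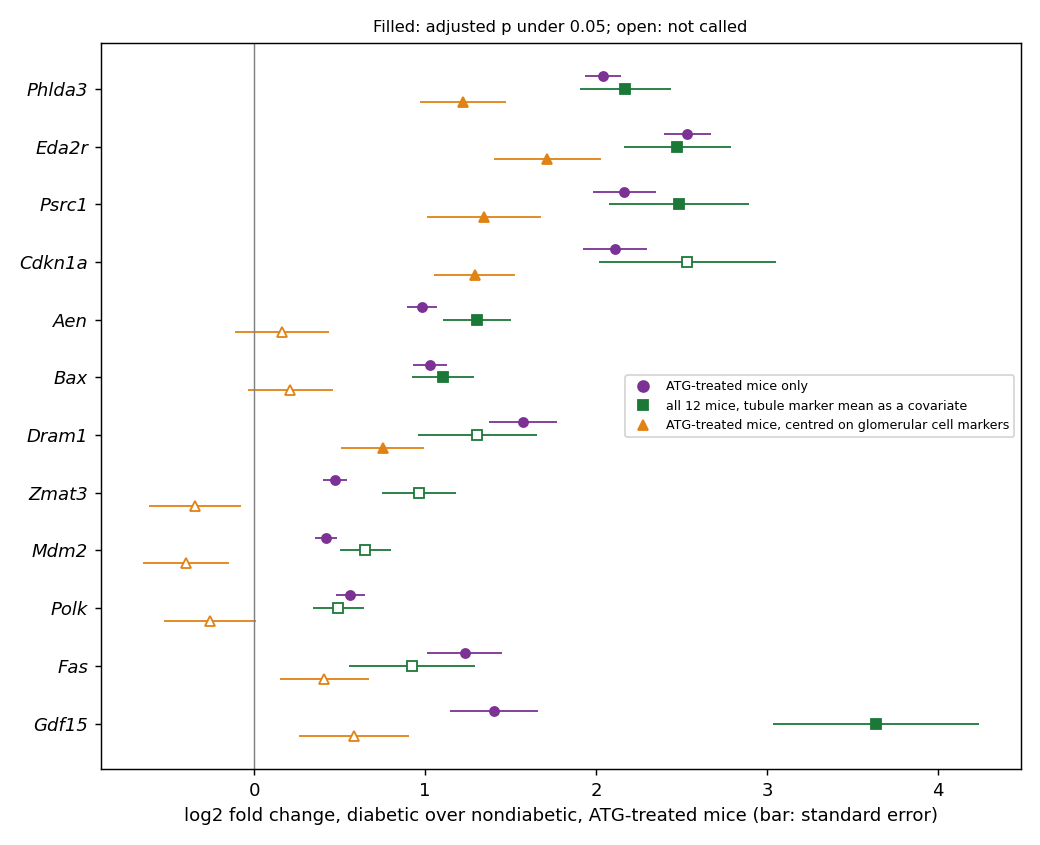
Log2 fold change of diabetic over nondiabetic ATG-treated mice (x axis, bars are standard errors) for the 12 members with the lowest p (y axis), in the 6 ATG-treated mice, in all 12 mice with the tubule list mean as covariate, and after centring on glomerular cell markers. Filled symbols have an adjusted p under 0.05, which for Psrc1 is no support, as it is listed only through diabetic libraries. Centring lowers every gene by 0.82. Eda2r moves from 2.53 to 2.47 and 1.71, and Mdm2 from 0.42 to 0.65 and -0.40.

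Of the 4 listed genes of the core and its regulatory loop, 2 rose in diabetic mice under ATG and none fell, beside 20.5% and 18.7% of all genes, each by less than 1 log2 unit. The p53 gene itself, Trp53, had log2 values of 9.66, 9.39 and 9.47 in vehicle-treated nondiabetic mice, 9.40, 9.34 and 9.46 in ATG-treated nondiabetic mice, 10.17, 10.04 and 9.96 in vehicle-treated diabetic mice and 9.64, 9.64 and 9.86 in ATG-treated diabetic mice. The vehicle-treated diabetic mice were the highest, and the ATG-treated diabetic mice overlapped the vehicle-treated nondiabetic mice. Diabetes raised Trp53 by 0.31 ± 0.09 (log2 fold change ± SE, limma adjusted p = 0.0355) under ATG, beside 0.55 ± 0.09 with vehicle. The Trp53 call was lost when any of mice 1 and 2 of the nondiabetic or 1, 2 and 3 of the diabetic ATG group was left out (adjusted p up to 0.115), and the value turned to -0.22 in the 6-mouse fit with the tubule covariate.

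Mdm2, the ligase that marks p53 for degradation, had log2 values of 10.89, 11.03 and 11.06 in vehicle-treated and 10.97, 11.06 and 11.00 in ATG-treated nondiabetic mice. They were 11.50, 11.65 and 11.31 in vehicle-treated and 11.42, 11.43 and 11.45 in ATG-treated diabetic mice. Both diabetic groups lay wholly above both nondiabetic groups. The log2 fold change was 0.42 ± 0.06 under ATG (SE, limma adjusted p = 0.00432) and 0.49 ± 0.08 with vehicle. Mdm4, which binds and inhibits p53, was not called at 0.08 ± 0.11 under ATG, and it was -0.21 ± 0.10 with vehicle. Ppm1d, the phosphatase that dampens the damage response, was not called either, at 0.00 ± 0.12.

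Of the 7 genes of cell cycle arrest and checkpoint, 4 were called higher, Psrc1 included, and none lower, beside 20.5% and 18.7% of all genes. Cdkn1a encodes p21, which inhibits cyclin-dependent kinases. Its log2 values were 11.70, 10.82 and 11.16 in vehicle-treated nondiabetic mice and 10.32, 10.91 and 11.00 in ATG-treated nondiabetic mice. In diabetic mice Cdkn1a was at 12.64, 13.44 and 12.82 with vehicle and at 13.05, 12.72 and 12.80 with ATG, so no diabetic mouse came down to the range of the nondiabetic mice. The difference was 2.11 ± 0.19 under ATG (SE, limma adjusted p = 0.00234), a 4.32-fold change, and 1.74 ± 0.26 with vehicle.

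Psrc1, a microtubule-associated protein of the spindle, was the lowest member per kilobase in vehicle-treated nondiabetic mice. Its log2 values were 6.03, 5.39 and 5.86 in vehicle-treated and 5.82, 5.22 and 5.47 in ATG-treated nondiabetic mice. In diabetic mice Psrc1 was at 7.94, 8.09 and 7.63 with vehicle and at 7.64, 7.70 and 7.66 with ATG. The groups did not overlap, and the difference was 2.16 ± 0.19 under ATG (SE) and 2.13 ± 0.20 with vehicle, given without a test because no nondiabetic library reached the level for listing. Ccng1, encoding cyclin G1, which recruits the phosphatase PP2A to Mdm2, rose by 0.35 ± 0.10 (limma adjusted p = 0.0301). The call was lost when all 12 mice were fitted together (limma adjusted p = 0.0549). Gadd45a, a stress-induced growth arrest gene, rose by 0.93 ± 0.29 (limma adjusted p = 0.0406), but its values in ATG-treated mice overlapped, from 11.07 to 12.16 in nondiabetic and from 12.12 to 12.66 in diabetic mice. The Gadd45a value was -0.99 ± 0.78 in the 6-mouse fit with the tubule covariate.

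Plk2, a polo-like kinase of the stress response, was just outside the threshold at 0.86 ± 0.29 (limma adjusted p = 0.0505). Btg2, an antiproliferative gene induced early after stress, had log2 values of 13.72, 13.18 and 12.98 in vehicle-treated nondiabetic mice and 11.85, 13.45 and 13.03 in ATG-treated nondiabetic mice. They were 12.30, 12.60 and 12.63 in vehicle-treated and 12.97, 13.44 and 12.65 in ATG-treated diabetic mice. Btg2 was thus lower in every vehicle-treated diabetic mouse than in every vehicle-treated control (-0.78 ± 0.36), and its ATG-treated groups overlapped (0.25 ± 0.40). The related kinase gene Plk3 was at 9.66, 9.75 and 9.67 in vehicle-treated nondiabetic, 10.03, 10.38 and 9.46 in ATG-treated nondiabetic, 9.73, 9.94 and 9.18 in vehicle-treated diabetic and 10.10, 9.80 and 9.60 in ATG-treated diabetic mice. All 4 groups of Plk3 overlapped.

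**Figure D4:**
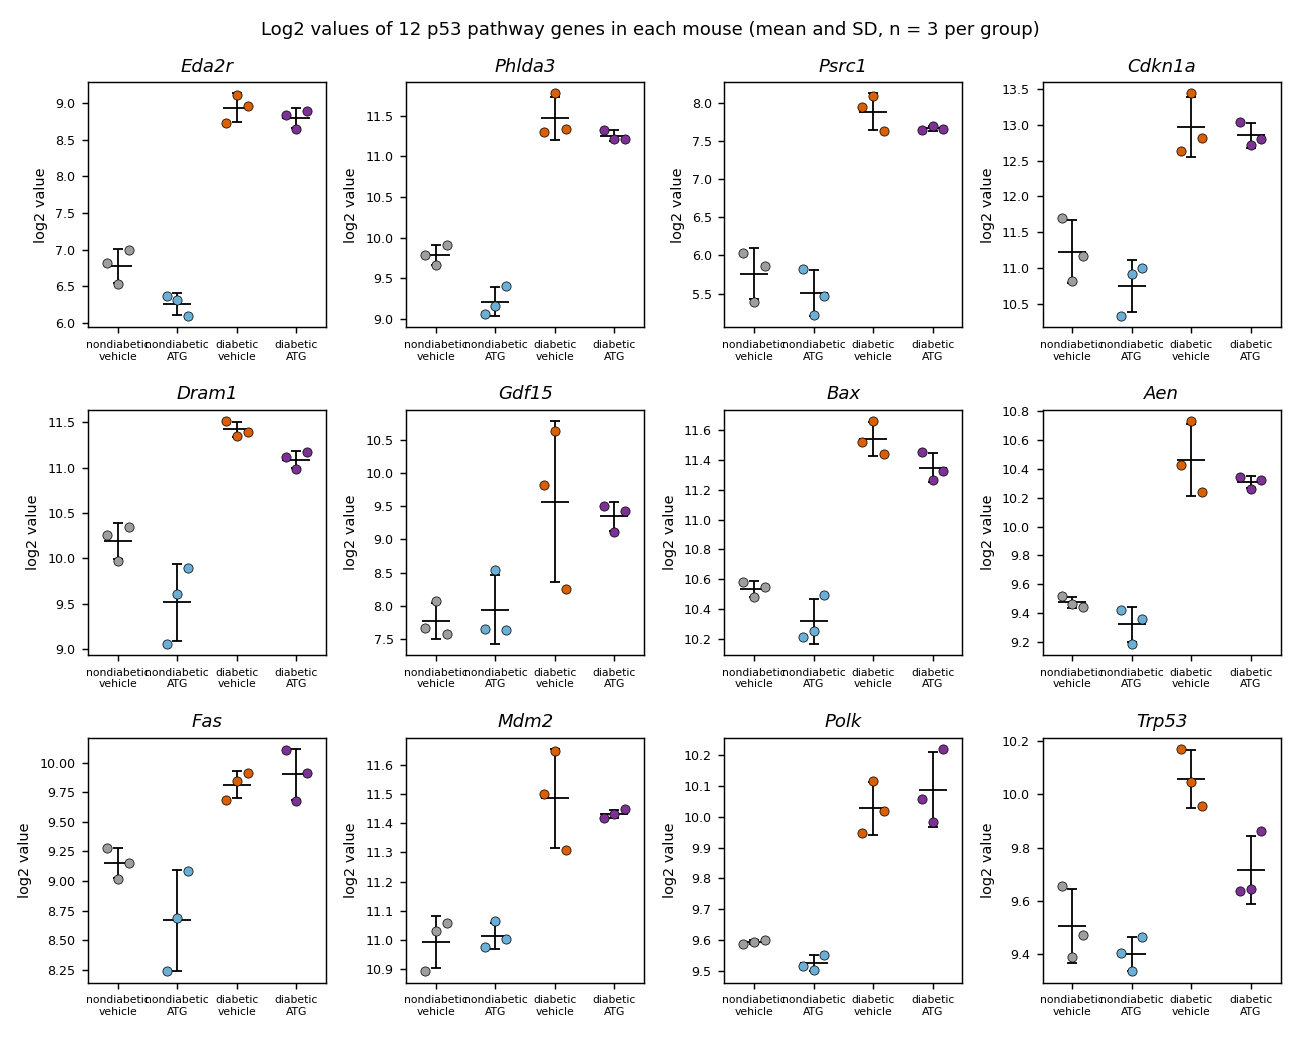
Log2 value (y axis) of 12 members in each of the 12 mice (points) by group (x axis), with the group mean and SD as a line and bar (n = 3 mice). In Eda2r the diabetic mice lie between 8.64 and 9.12 and the nondiabetic mice between 6.09 and 6.99, whereas in Gdf15 the third vehicle-treated diabetic mouse, at 8.25, lies within the range of the nondiabetic mice.

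The genes of death receptors and apoptosis held the largest share of calls, with 11 of 14 higher and 1 lower, beside 20.5% and 18.7% of all genes. Eda2r, a receptor of the tumour necrosis factor family, rose most of all members. Its log2 values were 6.82, 6.53 and 6.99 in vehicle-treated and 6.37, 6.32 and 6.09 in ATG-treated nondiabetic mice, and they were 8.73, 9.12 and 8.96 in vehicle-treated and 8.84, 8.64 and 8.90 in ATG-treated diabetic mice. The gap between the highest nondiabetic and the lowest diabetic mouse was wider than the spread within any group. Diabetes raised Eda2r by 2.53 ± 0.14 under ATG (SE, limma adjusted p = 0.0012), or 5.79-fold, and by 2.15 ± 0.15 with vehicle, or 4.45-fold.

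The death receptor gene Fas was at 9.27, 9.02 and 9.15 in vehicle-treated nondiabetic, 8.24, 8.68 and 9.09 in ATG-treated nondiabetic, 9.69, 9.84 and 9.91 in vehicle-treated diabetic and 10.11, 9.68 and 9.92 in ATG-treated diabetic mice. The ATG-treated nondiabetic mice spread the most and held the 2 lowest values. Fas rose by 1.23 ± 0.22 under ATG (SE, limma adjusted p = 0.00649), beside 0.66 ± 0.19 with vehicle. Fas was at 0.39 ± 0.77 in the 6-mouse fit with the tubule covariate. Tnfrsf10b, the mouse receptor for the ligand TRAIL, rose by 0.70 ± 0.13 (limma adjusted p = 0.0077).

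Bax encodes the protein that opens the outer mitochondrial membrane. Its log2 values were 10.58, 10.48 and 10.55 in vehicle-treated and 10.21, 10.25 and 10.49 in ATG-treated nondiabetic mice, against 11.52, 11.66 and 11.44 in vehicle-treated and 11.46, 11.27 and 11.32 in ATG-treated diabetic mice. The diabetic mice were roughly a doubling above the others in both treatments, with 1.03 ± 0.10 under ATG (SE, limma adjusted p = 0.00234) and 1.01 ± 0.09 with vehicle. In the 12-mouse fit with the tubule covariate Bax was at 1.10 ± 0.18 (limma adjusted p = 0.0382). After centring on the glomerular cell markers it was at 0.21 ± 0.25 and not called (limma adjusted p = 0.448). Bbc3, encoding the BH3-only protein PUMA, rose by 0.74 ± 0.18 (limma adjusted p = 0.017). Pmaip1, which encodes the related protein NOXA, was not called at 0.42 ± 0.21 and stood at 0.77 ± 0.25 with vehicle. Its value in the 12-mouse fit with the tubule covariate was 1.64 ± 0.30 (limma adjusted p = 0.0451). After centring on the glomerular cell markers Pmaip1 turned to -0.40 ± 0.31 (limma adjusted p = 0.251).

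Aen, a nuclease that promotes apoptosis, was at 9.52, 9.46 and 9.45 in vehicle-treated nondiabetic, 9.42, 9.19 and 9.36 in ATG-treated nondiabetic, 10.42, 10.73 and 10.24 in vehicle-treated diabetic and 10.34, 10.26 and 10.32 in ATG-treated diabetic mice. The lowest diabetic mouse thus stood well above the highest nondiabetic mouse. Aen rose by 0.98 ± 0.09 under ATG (SE, limma adjusted p = 0.00234) and by 0.99 ± 0.11 with vehicle. In the 12-mouse fit with the tubule covariate Aen was at 1.30 ± 0.20 (limma adjusted p = 0.0327). After centring on the glomerular cell markers it was at 0.16 ± 0.27 and not called (limma adjusted p = 0.594). The caspase-activating adaptor genes Apaf1 (0.65 ± 0.16, limma adjusted p = 0.0168) and Pidd1 (0.62 ± 0.14, limma adjusted p = 0.0146) rose as well. With vehicle they stood at 0.25 ± 0.14 and 0.34 ± 0.13. Apaf1 was at -0.34 ± 0.44 in the 6-mouse fit with the tubule covariate.

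Phlda3, whose small pleckstrin homology protein restrains the kinase Akt, had log2 values of 9.78, 9.66 and 9.91 in vehicle-treated and 9.06, 9.16 and 9.41 in ATG-treated nondiabetic mice. In diabetic mice it was at 11.30, 11.77 and 11.33 with vehicle and at 11.33, 11.21 and 11.22 with ATG. All diabetic mice were more than 1 log2 unit above all nondiabetic mice, and the ATG-treated nondiabetic mice were the lowest group. The change was 2.04 ± 0.10 under ATG (SE, limma adjusted p = 0.0012), a 4.11-fold rise, and 1.69 ± 0.13 with vehicle.

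Dram1 encodes a lysosomal membrane protein that links p53 to autophagy. It was at 10.26, 9.97 and 10.35 in vehicle-treated nondiabetic, 9.06, 9.60 and 9.89 in ATG-treated nondiabetic, 11.51, 11.35 and 11.39 in vehicle-treated diabetic and 11.11, 10.98 and 11.17 in ATG-treated diabetic mice. Within each disease state the ATG-treated mice lay below the vehicle-treated mice, without overlap. Diabetes raised Dram1 by 1.57 ± 0.20 under ATG (SE, limma adjusted p = 0.00309) and 1.23 ± 0.17 was the difference with vehicle. Dram1 was at 0.82 ± 0.70 in the 6-mouse fit with the tubule covariate. Trp53inp1, a p53-induced nuclear protein, rose by 0.38 ± 0.11 (limma adjusted p = 0.0282), but was at -0.29 ± 0.30 in the 6-mouse fit with the tubule covariate. Ei24 was not called at 0.07 ± 0.07.

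Perp, a membrane protein of desmosomes that p53 induces in several epithelia, went the other way. It was at 10.36, 10.35 and 10.03 in ATG-treated nondiabetic mice and at 9.76, 9.64 and 9.71 in ATG-treated diabetic mice, a change of -0.54 ± 0.11 (SE, limma adjusted p = 0.00875). The vehicle-treated nondiabetic mice were at 9.87, 9.51 and 9.71 and the vehicle-treated diabetic mice at 9.90, 10.08 and 8.82 (SD 0.68), a difference of -0.10 ± 0.26. The second of the vehicle-treated diabetic mice lay within the range of the ATG-treated nondiabetic mice. The Perp call was lost when all 12 mice were fitted together (-0.54 ± 0.26, limma adjusted p = 0.106), and with the tubule covariate in that fit the value turned to 0.67 (limma adjusted p = 0.302).

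Of the 5 genes of DNA repair and nucleotide supply, 2 rose and none fell, beside 20.5% and 18.7% of all genes. Polk, a polymerase that copies past damaged bases, was at 9.59, 9.59 and 9.60 in vehicle-treated and 9.52, 9.50 and 9.55 in ATG-treated nondiabetic mice. In diabetic mice it was at 9.95, 10.12 and 10.02 with vehicle and at 10.06, 9.98 and 10.22 with ATG. The nondiabetic mice were tightly grouped, and the change was 0.56 ± 0.09 under ATG (SE, limma adjusted p = 0.00442) and 0.43 ± 0.07 with vehicle. Polk was at 0.14 ± 0.29 in the 6-mouse fit with the tubule covariate. Ercc5, an endonuclease of nucleotide excision repair, rose by 0.26 ± 0.07 (limma adjusted p = 0.0286), but was at 0.01 ± 0.27 in the 6-mouse fit with the tubule covariate. The damage recognition genes Xpc (-0.04 ± 0.07) and Ddb2 (0.04 ± 0.18) were not called, nor was Rrm2b, which encodes the p53-inducible subunit of ribonucleotide reductase (-0.16 ± 0.08).

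Of the 9 remaining genes, which act in stress responses and metabolism, 3 rose and 1 fell, beside 20.5% and 18.7% of all genes. Gdf15, a secreted stress cytokine, was at 7.67, 8.07 and 7.58 in vehicle-treated nondiabetic, 7.66, 8.54 and 7.64 in ATG-treated nondiabetic, 9.82, 10.63 and 8.25 in vehicle-treated diabetic and 9.51, 9.11 and 9.43 in ATG-treated diabetic mice. The vehicle-treated diabetic mice spread over more than 2 log2 units (SD 1.21), the widest spread of any member in any group. The third of these mice also had the lowest tubule marker mean, 11.09, and the part of this in its Gdf15 value was not tested. Gdf15 rose by 1.40 ± 0.25 under ATG (SE, limma adjusted p = 0.00685), beside 1.79 ± 0.48 with vehicle, and stood at 3.63 ± 0.60 in the 12-mouse fit with the tubule covariate. After centring on the glomerular cell markers it was at 0.58 ± 0.32 and not called (limma adjusted p = 0.108).

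Zmat3, a zinc finger protein that binds RNA, was at 9.88, 9.93 and 10.00 in vehicle-treated nondiabetic, 10.11, 10.03 and 9.99 in ATG-treated nondiabetic, 10.69, 11.04 and 10.35 in vehicle-treated diabetic and 10.48, 10.52 and 10.55 in ATG-treated diabetic mice. Every diabetic mouse was above every nondiabetic mouse. Zmat3 rose by 0.47 ± 0.07 under ATG (SE, limma adjusted p = 0.00415), beside 0.75 ± 0.13 with vehicle. Epha2, a receptor tyrosine kinase, rose by 1.00 ± 0.24 (limma adjusted p = 0.0178). Epha2 was at 0.33 ± 0.90 in the 6-mouse fit with the tubule covariate, and its adjusted p (limma) reached 0.067 with 1 mouse left out.

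Abhd4, a lipase of N-acyl phospholipids, was at 11.72, 11.62 and 11.58 in vehicle-treated nondiabetic, 12, 11.87 and 11.70 in ATG-treated nondiabetic, 11.54, 11.71 and 11.56 in vehicle-treated diabetic and 11.55, 11.55 and 11.61 in ATG-treated diabetic mice. ATG-treated nondiabetic mice 1 and 2 were the highest, and mouse 3 lay within the range of the vehicle-treated groups. The change of -0.29 ± 0.09 under ATG (SE, limma adjusted p = 0.0424) compared with -0.03 ± 0.08 with vehicle. The Abhd4 call was lost with limma-voom on the recovered reads (adjusted p = 0.052). Rps27l, a ribosomal protein paralog whose reads may be shared with near-identical copies, was at 10.99, 10.99 and 10.99 in vehicle-treated nondiabetic, 11.32, 11.27 and 11.26 in ATG-treated nondiabetic, 11.40, 11.65 and 11.09 in vehicle-treated diabetic and 11.49, 11.35 and 11.35 in ATG-treated diabetic mice. The vehicle-treated nondiabetic mice of Rps27l were the lowest, and diabetes under ATG gave 0.11 ± 0.07, which was not called. The sestrin genes Sesn1 (0.21 ± 0.08) and Sesn2 (-0.42 ± 0.17), Ak1 (0.07 ± 0.11) and Trp53i11 (0.10 ± 0.24) were not called.

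In each fit that left out 1 of the 6 ATG-treated mice, the same 13 members were called higher, namely Eda2r, Phlda3, Psrc1, Cdkn1a, Bax, Aen, Dram1, Fas, Gdf15, Mdm2, Polk, Tnfrsf10b and Zmat3, and Perp was called lower. The other 10 called members, Trp53, Ccng1, Gadd45a, Bbc3, Pidd1, Apaf1, Trp53inp1, Ercc5, Epha2 and Abhd4, lost the call in at least 1 of these fits. Of all listed genes, 9.33% were called higher and 10.3% lower in every one of these fits and in the 6 mice together. The count of members called fell from 24 to 15 without the second ATG-treated diabetic mouse (14 higher and 1 lower, against 11.5% and 12.1% of all genes) and to 15 without the third (14 higher and 1 lower, against 10.8% and 11.6%). Without the first ATG-treated nondiabetic mouse, whose podocyte marker mean was the lowest, 20 members were called (19 higher and 1 lower, against 16.4% and 15.5%), and without the second 17 were (16 higher and 1 lower, against 11.7% and 11.6%).

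In a list of other p53 targets, 21 of 62 listed genes rose and 10 fell in diabetes under ATG, beside 20.5% and 18.7% of all genes, with a median of 0.13. The carnitine palmitoyltransferase gene Cpt1c (1.24 ± 0.11), the replication clamp gene Pcna (0.61 ± 0.08) and the cell cycle repressor gene E2f7 (1.05 ± 0.14) rose, while Retsat (-1.22 ± 0.18), Cmbl (-1.30 ± 0.23) and Hspa4l (-0.64 ± 0.12) fell. Of 28 listed kinases, ligases and cofactors that act on p53, 3 rose and 1 fell, both smaller shares than the 20.5% and 18.7% of all genes. Chek2, the checkpoint kinase that phosphorylates p53, rose by 0.44 ± 0.12, Ppp1r13b by 0.44 ± 0.07 and Daxx by 0.27 ± 0.08, and Trp53bp2 fell (-0.51 ± 0.12).

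Proliferation genes rose alongside the cell cycle inhibitor Cdkn1a. Of 19 listed proliferation genes, 18 were called higher in diabetes under ATG and none lower, against 20.5% and 18.7% of all genes. Their median was 1.29, and that of all genes was 0.053. Cdk1 rose by 2.38 ± 0.14, Mki67 by 1.97 ± 0.15 and Mcm5 by 0.91 ± 0.08 (SE). Whether any of these genes is listed only through diabetic libraries, as Psrc1 is, was not checked. The list mean lay between 8.31 and 8.60 in ATG-treated diabetic mice and between 7.13 and 7.32 in ATG-treated nondiabetic mice. Whether these genes and Cdkn1a changed in the same cells was not tested.

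ATG changed no p53 pathway gene in diabetic mice at an adjusted p under 0.05 (limma, 0 of 39 members). No gene at all was called in this comparison (0%), and the lowest adjusted p was 0.248 over all genes and 0.917 over the members. At an unadjusted p under 0.05, 1 member was lower, Trp53, and none was higher, against 2.81% and 1.70% of all genes. Trp53 differed by -0.34 ± 0.09 (95% interval -0.55 to -0.14, unadjusted p = 0.00386, limma), with all 3 ATG-treated diabetic mice under all 3 vehicle-treated diabetic mice. This comparison shares its vehicle-treated diabetic mice with the one known when the list was drawn up.

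The other members with that separation were Ak1, Dram1, Ercc5, Gadd45a and Tnfrsf10b, which makes 6 of 39 below (15.4%, against 6.32% of all genes), and Btg2 was the 1 member above (3.85% of all genes). The median of the members was -0.07, and that of all genes was -0.0051. The 95% interval of the ATG difference was -0.47 to 0.19 for Eda2r, -0.50 to 0.07 for Phlda3, -0.68 to 0.46 for Cdkn1a and -1.27 to 0.83 for Gdf15. These genes were picked for their difference under ATG, which uses the same ATG-treated diabetic mice. All 11 listed leukocyte markers were below 0 with ATG in diabetic mice (median -0.51), none of them called and 5 at an unadjusted p under 0.05 (limma). Their list mean was 8.23 to 9.09 in ATG-treated and 8.84 to 9.36 in vehicle-treated diabetic mice. Of 20 kidney tubule markers, 18 were above 0 (median 0.40, none called), against 48.2% of all genes. The part of both lists in the values of the members was not tested.

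**Figure D5:**
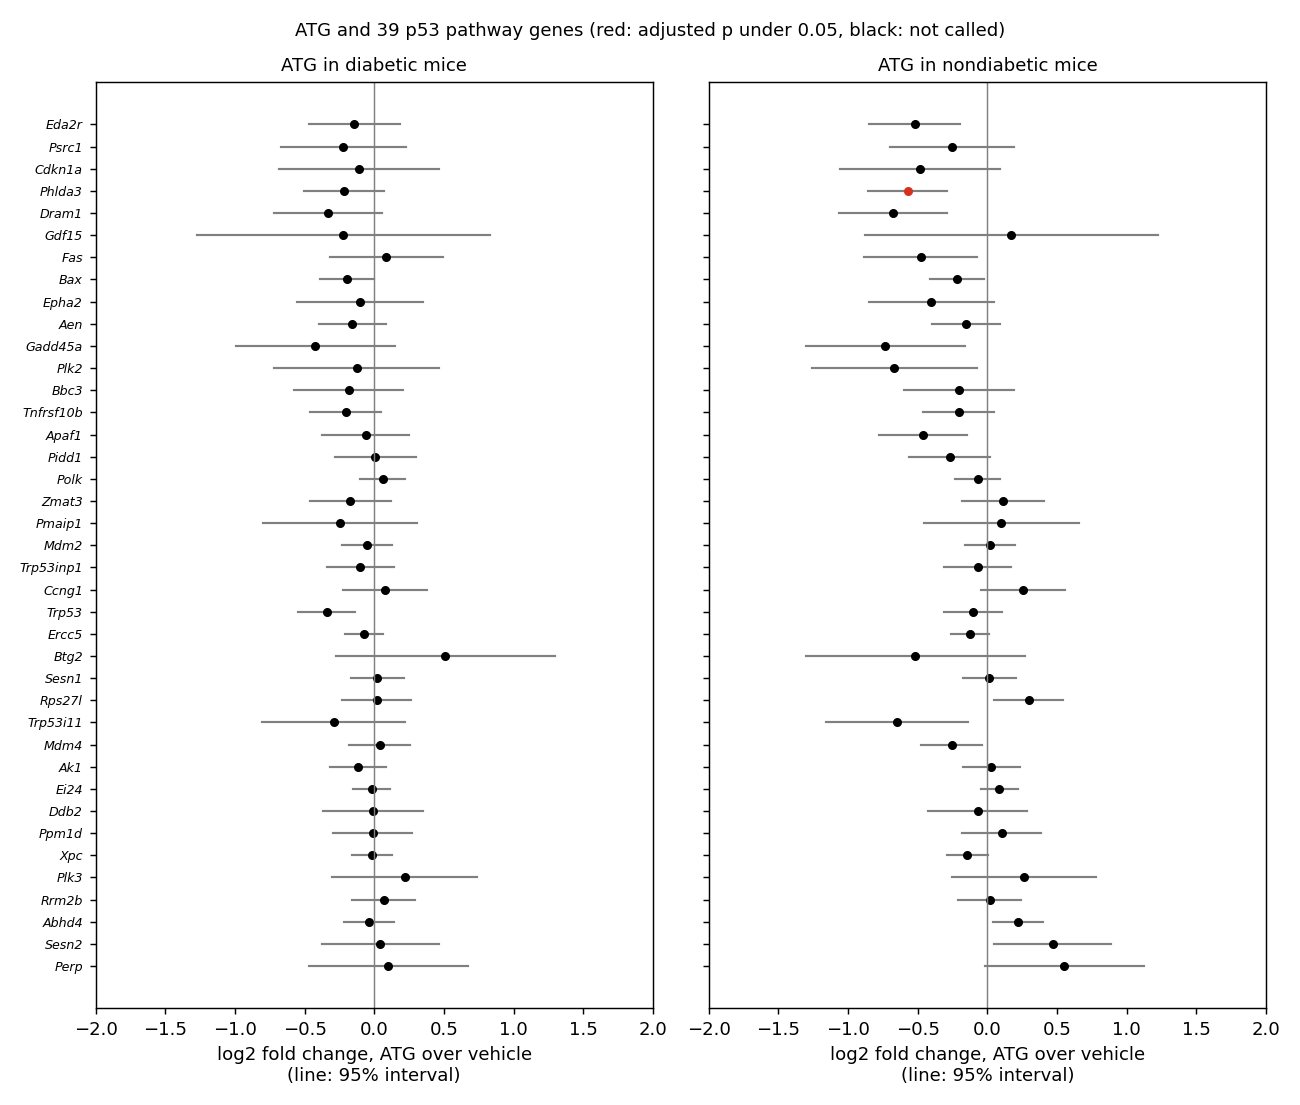
Log2 fold change of ATG over vehicle (x axis) in diabetic mice (left) and nondiabetic mice (right) for the 39 listed members (y axis), with 95% intervals as lines. Phlda3 in nondiabetic mice, at -0.57, is the single red point, with an adjusted p under 0.05.

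In nondiabetic mice, ATG lowered 1 member, Phlda3 (-0.57 ± 0.13, SE, limma adjusted p = 0.0351), against 4.51% of all genes lower and 5.22% in either direction. At an unadjusted p under 0.05, 10 members were lower and 3 higher, against 19.5% and 10.7% of all genes. Dram1 (-0.68 ± 0.17, limma adjusted p = 0.0501) and Eda2r (-0.52 ± 0.15, limma adjusted p = 0.0639) lay just outside the threshold. Abhd4 (0.22 ± 0.08) and Rps27l (0.30 ± 0.11) were the members with the lowest p among those above 0, and neither was called. This comparison shares its vehicle-treated nondiabetic mice with the one known when the list was drawn up.

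In the same libraries, all 10 podocyte, all 10 endothelial and all 7 mesangial markers were lower with ATG in nondiabetic mice by value. The same held for all 11 listed leukocyte markers (median -0.49). Of these, 6 endothelial and 4 mesangial markers were called, against 4.51% of all genes, and no podocyte or leukocyte marker was. All 20 tubule markers were above 0 (43.8% of all genes) with none called. The part of these markers in the values of the members was not tested. With the tubule covariate Phlda3 was at -0.62 ± 0.16 and not called (SE, limma adjusted p = 0.129), and centring raised every gene by 0.68 in this comparison, which put Phlda3 at 0.11. Without the third ATG-treated nondiabetic mouse, 10 members were called, 8 lower and 2 higher, against 17.5% and 7.55% of all genes. Without vehicle-treated nondiabetic mouse 1, 2 or 3, or without ATG-treated nondiabetic mouse 1, no member was called, and 0.837%, 2.60%, 0.426% and 1.42% of all genes were called lower.

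The effect of ATG was not shown to differ between diabetic and nondiabetic mice for any of the 39 members (limma interaction, lowest adjusted p = 0.385), while 0.546% of all genes were called. At an unadjusted p under 0.05 this difference passed for 1 member, Abhd4, against 12.9% of all genes. The same test compares the diabetes changes with and without ATG given side by side above. It uses all 6 vehicle-treated mice of the comparison known when the list was drawn up, so it is not independent of the choice of members.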

How the data were processed

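The authors deposited 1 table per mouse with log2 values for 14096 genes, as reads scaled by 1 factor per library without division by length. Whole reads were recovered from at least 83.4% of values under 2000 reads, within 0.02 reads. The submitters' processing notes name mm10 and limma. The aligner, the counter and the use of strand are not given in the sources used here, so reads of overlapping genes cannot be told apart.

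Differences were tested with limma 3.58.1 in R 4.3.3 (mean-variance trend, Benjamini-Hochberg adjustment over all listed genes, called at an adjusted p under 0.05). Diabetes under ATG used the 6 ATG-treated mice, and other comparisons used all 12 mice in 1 fit of 4 groups. The fit was tested on simulated data. Figures were drawn with matplotlib in Python. The labels do not say how many animals a library came from. Each was taken as 1 mouse, and p-values measure the spread between libraries.

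The members and lists were chosen with earlier results of these data known. Values in every mouse are given for the 12 members with the lowest p for diabetes under ATG, for Trp53, Mdm2 and Cdkn1a, and for up to 2 members per direction with the lowest p for each ATG comparison. Of the other lists, up to 3 called genes per direction are named. Perp was described in full after its values were seen. The tubule covariate with all 12 mice and the centring on glomerular markers were chosen after seeing the data.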

Additional observations from a re-analysis of the deposited data

How the results depend on the processing

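The spread between 3 mice per group includes counting error, which was not separated from it. Depth was lowest for Psrc1 and Eda2r, with 32 to 60 and 61 to 118 reads in nondiabetic mice. Alternatives were a median-ratio scaling, a linear value of at least 100 in every mouse, a prior without a trend, limma-voom on the recovered reads, all 12 mice in 1 fit, the tubule covariate, the replicate block, mouse 1 of both nondiabetic groups, whose labels end in no number, left out together and each mouse left out in turn. The members called for diabetes under ATG were 24. They were 0 with the tubule covariate (0% of all genes), 7 with that covariate in all 12 mice (all higher, against 0.575% of all genes), and 15 to 25 with single mice left out (10.8% to 27.5% of all genes higher and 11.6% to 22.9% lower). The median of the members was 0.42, and it was 0.46 with the tubule covariate, 0.67 with that covariate in all 12 mice and -0.40 after centring on glomerular markers. In vehicle-treated mice the median of 0.40 was 0.56 with the tubule covariate. Centring lowered every gene by 0.82 in diabetes under ATG, so 11 of the 22 members called higher, whose rises had been smaller than that, lay below 0, among them Zmat3 at -0.35, Mdm2 at -0.40, Polk at -0.26 and Trp53 at -0.51. For ATG in nondiabetic mice it raised every gene by 0.68, which put Phlda3 at 0.11. The tubule covariate turned 4, Trp53 to -0.22, Gadd45a to -0.99, Apaf1 to -0.34 and Trp53inp1 to -0.29, and in all 12 mice it turned Trp53inp1 to -0.08 and Perp to 0.67. For ATG in nondiabetic mice, where 1 member was called, 0 were called with median-ratio scaling, with the tubule covariate or without mouse 1 of both nondiabetic groups (2.89%, 0.298% and 0.0568% of all genes lower), 2 with the filter, with limma-voom or with the replicate block (all lower, against 5.12%, 4.54% and 5.07% of all genes), 21 after centring (53.8%, all higher, against 73.0% of all genes), and 0 to 10 with single mice left out (0.426% to 17.5% of all genes lower). For ATG in diabetic mice and for the difference between the ATG effects, 0 members were called under every alternative run. The replicate number that ends a label differs from the numbering used here in nondiabetic mice. Mice that share it are different animals whose deviations correlated with r from -0.59 to 0.339, so it was not taken as pairing them. With the replicate block, 18 members were called for diabetes under ATG (17 higher and 1 lower, against 11.2% and 12.4% of all genes). In that fit ATG-treated nondiabetic mouse 1 and ATG-treated diabetic mouse 3 were alone in their block and added nothing to the comparison.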
